A study of Mus musculus with 16 samples.

Results

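The neutrophil genes described here are 7 genes chosen by name, S100a8, S100a9, Ly6g, Csf3r, Retnlg, Camp and Ngp, and found by symbol among the 53647 genes of a table of mouse lung transcripts. All 7 were in the table. RNA had been sequenced from lung of 4 groups of mice: Ad-ATP12A (bleomycin plus an adenoviral vector that carries ATP12A in its name), Ad-GFP (bleomycin plus an adenoviral GFP vector), bleomycin with no vector named, and control. Bleomycin damages lung tissue and leaves scarring that serves as a mouse model of fibrosis, and ATP12A, a subunit of a proton pump, is the target named in the title of the series. The Ad-ATP12A, Ad-GFP and bleomycin groups thus shared bleomycin, and the control label names no agent. Each group had 4 libraries, 2 in each of 2 batches, and a library is written by batch and replicate, so that b2r1 is batch 2, replicate 1. The labels give no strain, sex, age, dose or day, no promoter of the vectors and no species of the carried ATP12A. They do not state that replicates were separate mice, so p-values measure the spread between these libraries, which may be technical.

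Neutrophils are short-lived white blood cells that are made in the bone marrow and fill their granules in steps as they mature, so that transcripts of granule proteins mark young cells and transcripts of surface receptors mark older ones. In the lung they also lie within the capillaries, from which they enter the airspaces after injury. S100a8 and S100a9 encode the 2 chains of calprotectin, a calcium-binding protein that fills the cytosol of neutrophils and is also made by monocytes. Ngp and Camp encode neutrophilic granule protein and cathelicidin, proteins of the later granules. Csf3r is the receptor for G-CSF, the growth factor of the lineage, Ly6g is the surface protein used to sort mouse neutrophils, and Retnlg encodes a secreted resistin-like protein of mature neutrophils.

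The bases just before the gene starts are shown for the genes with a match to 1 of 3 motifs, the general TATA box and the letters of 2 factors of the myeloid lineage, and for Camp, the only member that later passed a test. RefSeq entries on build GRCm38.p6 matched all 7 genes, and the 120 bases before the start are given 5′ to 3′ on the gene's strand. The windows lie at chr3:90668951-90669070 (plus strand), chr15:75155141-75155260 (plus strand), chr4:126024539-126024658 (plus strand), chr9:109849457-109849576 (minus strand) and chr9:110419688-110419807 (plus strand). Capitals mark matches, on either strand, to the TATA box (searched as TATAAA), to letters bound by the myeloid factor PU.1 (searched as GAGGAA) and to letters bound by C/EBP factors (searched as TTGCNNAA).
S100a8: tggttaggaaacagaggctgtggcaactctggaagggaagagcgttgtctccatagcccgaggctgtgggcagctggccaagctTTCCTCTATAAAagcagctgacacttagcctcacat
Ly6g: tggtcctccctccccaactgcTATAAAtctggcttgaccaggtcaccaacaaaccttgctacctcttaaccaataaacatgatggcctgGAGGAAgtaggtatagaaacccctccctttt
Csf3r: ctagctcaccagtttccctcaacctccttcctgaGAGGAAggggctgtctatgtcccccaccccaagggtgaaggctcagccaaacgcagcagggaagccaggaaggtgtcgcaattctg
Camp: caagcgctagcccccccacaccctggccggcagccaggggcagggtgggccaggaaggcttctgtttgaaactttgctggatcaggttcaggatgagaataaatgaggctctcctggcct
Ngp: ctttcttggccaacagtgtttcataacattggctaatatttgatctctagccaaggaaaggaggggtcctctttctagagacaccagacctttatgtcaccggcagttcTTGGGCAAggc
In S100a8 the TATA box began 30 bases before the start, and the PU.1 letters, on the reverse strand, began 36 bases before it; the 2 adjoin without overlap. Ly6g held a TATA box at 99 and PU.1 letters at 31 bases before the first of its 2 listed starts, Csf3r held PU.1 letters at 86, and Ngp held C/EBP letters, on the reverse strand, at 11. S100a9, Retnlg and Camp held none of the 3 in this window. TATAAA was found in 2 of 7 members and 6.34% of 32851 windows of the same length, GAGGAA in 3 of 7 and 11.6%, and TTGCNNAA in 1 of 7 and 4.15%. Members were counted by gene over all their listed starts, whereas the percentages are of single windows, so the 2 shares differ in unit. A match is a description of letters and no measure of binding.

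Values are TPM, a relative abundance that corrects for transcript length and library total. Read counts cannot be had from it, so depth is unknown. The libraries held 15537 to 16336 genes at 1 TPM or more. Sftpc, a surfactant gene of alveolar type 2 cells, was at 3965.35 to 29396.56 TPM. Scgb1a1, a product of airway club cells, was under 1000 TPM in 3 libraries, Ad-GFP b1r1, bleomycin b2r2 and control b2r1. Xist, the RNA of the inactive X chromosome, reached 10 TPM in 6 libraries, more of them Ad-ATP12A than of any other group. Atp12a averaged 15.7 ± 13.6 TPM in Ad-ATP12A lungs, 0.0175 ± 0.0236 TPM in Ad-GFP lungs, 0.0525 ± 0.0984 TPM in bleomycin lungs and 0.0275 ± 0.0359 TPM in control lungs (SD, n = 4 each).

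The calprotectin genes dominated the set. S100a9 was present at 47.76, 63.75, 194.26 and 215.24 TPM in the Ad-ATP12A libraries b1r1, b1r2, b2r1 and b2r2, and in the same order at 61.15, 80.67, 83.34 and 95.85 TPM in Ad-GFP libraries. Bleomycin libraries held 90.32, 55.27, 335.08 and 134.50 TPM of S100a9, and control libraries held 332.63, 352.71, 349.96 and 99.49 TPM. Of the controls, 3 lay close together at the top of all 16 libraries beside bleomycin b2r1, while control b2r2 was lower than 2 bleomycin libraries and lay just above the highest Ad-GFP library. Thus the control range overlapped those of bleomycin and Ad-ATP12A and not that of Ad-GFP.

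S100a8, its partner, was high and low in much the same libraries. It was at 49.90, 68.77, 174.50 and 230.38 TPM in Ad-ATP12A libraries, at 72.00, 103.85, 85.87 and 117.17 TPM in Ad-GFP libraries, and at 87.04, 60.03, 239.25 and 140.90 TPM in bleomycin libraries. Control libraries held 222.88, 272.58, 294.44 and 69.09 TPM, so that control b2r2 lay below the other 3 and below all Ad-GFP libraries. Both genes together made up 71.4% to 88.1% of the summed TPM of the 7 genes in every library.

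The later-granule genes Ngp and Camp were far less abundant. Ngp was at 2.26, 4.53, 9.30 and 8.67 TPM in Ad-ATP12A, at 5.04, 4.11, 6.93 and 7.11 TPM in Ad-GFP, and at 5.94, 6.79, 21.46 and 7.42 TPM in bleomycin libraries, against 18.69, 19.31, 29.08 and 4.66 TPM in control libraries. Again control b2r2 was at the level of the treated lungs, and bleomycin b2r1 at that of the other 3 controls. Camp was at 1.86, 2.37, 3.74 and 2.62 TPM in Ad-ATP12A and at 1.94, 2.56, 2.33 and 2.08 TPM in Ad-GFP libraries. Bleomycin libraries held 4.01, 3.91, 8.68 and 4.83 TPM of Camp, and control libraries held 5.49, 7.77, 11.88 and 2.58 TPM. Every Ad-GFP library was below every bleomycin and every control library for Camp, whereas Ad-ATP12A b2r1 and b2r2 exceeded control b2r2.

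The receptor Csf3r had a narrower span, with 10.06, 6.84, 14.17 and 12.65 TPM in Ad-ATP12A, 6.72, 10.26, 9.42 and 10.41 TPM in Ad-GFP, and 11.58, 5.98, 20.12 and 16.03 TPM in bleomycin libraries, against 16.81, 22.70, 23.71 and 8.32 TPM in control libraries. The ranges of all 4 groups overlapped. Retnlg did not share the order of the others: it was at 24.66, 15.19, 35.28 and 42.06 TPM in Ad-ATP12A, 26.31, 14.39, 13.34 and 19.51 TPM in Ad-GFP, 21.24, 14.64, 32.41 and 19.39 TPM in bleomycin, and 45.63, 36.84, 21.97 and 10.98 TPM in control libraries. Both the highest and the lowest Retnlg values of the 16 libraries were controls. Ly6g was near the lower limit of the table, at 0.24 to 0.55 TPM in Ad-ATP12A, 0.07 to 0.67 TPM in Ad-GFP, 0.00 to 1.51 TPM in bleomycin and 0.47 to 0.99 TPM in control libraries. Its 2 values of 0.00 were both bleomycin libraries of batch 1, where it is listed at 0.

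**Figure D1:**
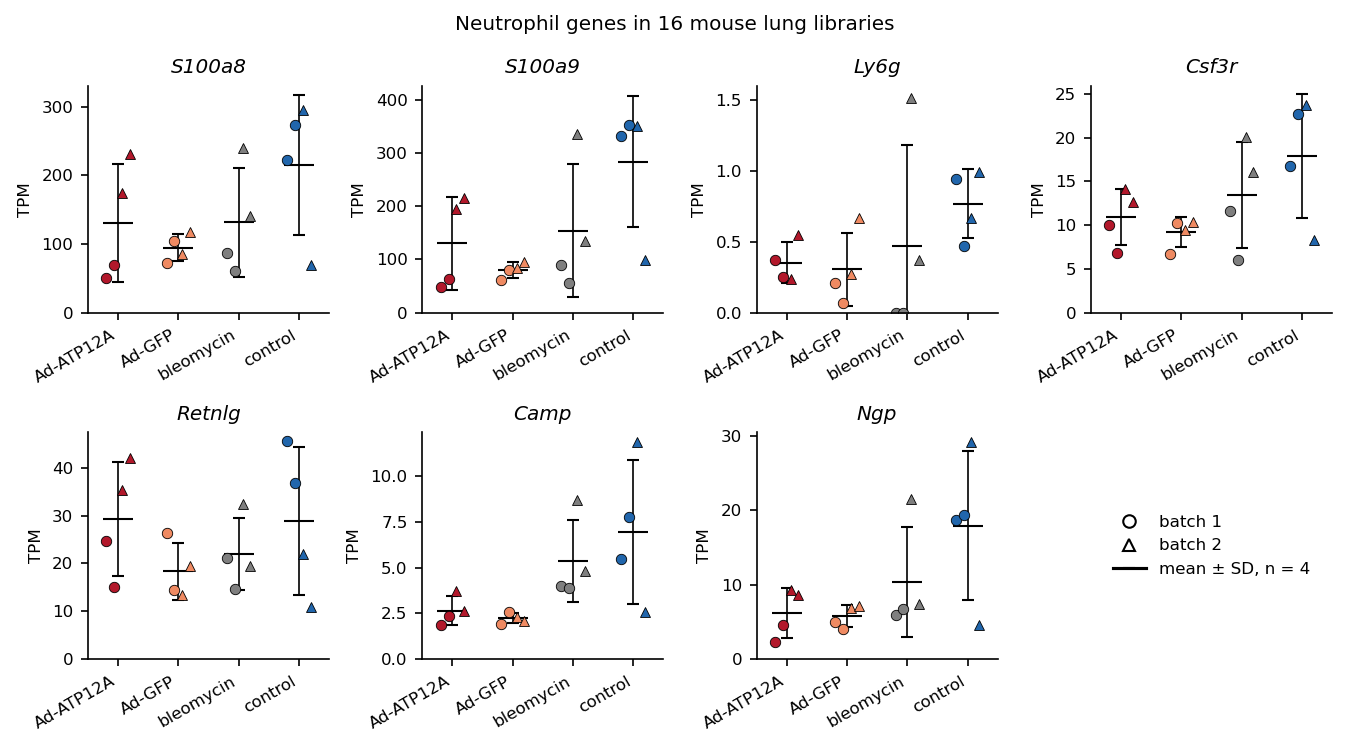
TPM of each neutrophil gene in the 16 lung libraries by group, each panel with its own linear axis from 0; circles are batch 1, triangles batch 2, and bars are the mean ± SD of 4 libraries. Control b2r2, the low triangle of the control group, held 99.49 TPM of S100a9 against 332.63 to 352.71 TPM in the other 3 controls, and Camp was at 1.94 to 2.56 TPM in every Ad-GFP library.

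By mean level the order of the genes was alike in the groups, from S100a9 and S100a8 through Retnlg, Csf3r, Ngp and Camp to Ly6g, except that S100a8 and S100a9 changed places between groups and Csf3r and Ngp had equal means of 17.9 TPM in control lungs. S100a9 averaged 130 ± 86.7 TPM in Ad-ATP12A, 80.3 ± 14.4 TPM in Ad-GFP, 154 ± 125 TPM in bleomycin and 284 ± 123 TPM in control lungs, and S100a8 averaged 131 ± 86.1, 94.7 ± 19.8, 132 ± 79.1 and 215 ± 102 TPM in the same groups (SD, n = 4 each). The ranges of these 2 neighbours overlapped in every group, although library by library S100a9 was above S100a8 in all 4 control libraries and below it in all 4 Ad-GFP libraries. Further down, Retnlg and Csf3r overlapped in bleomycin and control lungs, Csf3r and Ngp in all 4 groups, and Ngp and Camp in all but Ad-GFP lungs. Ly6g lay below Camp in every library. Both calprotectin genes varied far less among Ad-GFP libraries than within the other groups. In bulk lung RNA, fewer neutrophils and less of these transcripts per neutrophil cannot be told apart.

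Bleomycin against control addresses the effect of the injury. None of the 6 neutrophil genes tested passed, although all 6 had a negative log2 fold change on the log2(TPM + 1) scale. Ly6g had too few libraries at 1 TPM to enter the test, so 6 of 7 members were tested; over all 17003 genes tested 13.2% were called higher and 5.61% lower. S100a9 differed by -1.04 (SE 0.526, adjusted p = 0.182, limma with batch as a term, Benjamini-Hochberg over all genes), S100a8 by -0.70 (SE 0.502, adjusted p = 0.353) and Ngp by -0.68 (SE 0.476, adjusted p = 0.336). Csf3r was at -0.41, Retnlg at -0.26 and Camp at -0.23, with adjusted p of 0.418, 0.697 and 0.648, and Ly6g was at -0.37 in a fit with no filter (adjusted p = 0.629). The members' median was -0.54 beside 0.05 over all genes.

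The count depended on 1 library, control b2r2, which was the lowest control for each of the 6 genes tested. Leaving it out raises the control mean of each by construction. The share of all genes called in fits of fewer libraries is not reported here, so these counts cannot be set against it. Without control b2r2, 4 of the 6 genes were lower and passed: S100a9 at -1.66 (adjusted p = 0.0150), S100a8 at -1.33 (adjusted p = 0.0200), Ngp at -1.33 (adjusted p = 0.00905) and Csf3r at -0.81 (adjusted p = 0.0355). The batches also differed. In batch 1 alone, where no control was low, 4 genes passed as lower, with S100a9 at -2.26 (adjusted p = 0.00821), S100a8 at -1.76 (adjusted p = 0.00963), Ngp at -1.44 (adjusted p = 0.0122) and Retnlg at -1.17 (adjusted p = 0.0465). In batch 2, which holds control b2r2 and bleomycin b2r1, the 6 log2 fold changes lay above 0, from 0.08 for Ngp to 0.65 for Retnlg. The difference between the batches was itself 2.45 for S100a9 (limma interaction adjusted p = 0.121), and no neutrophil gene passed the interaction test in any group comparison, the smallest adjusted p being 0.0517.

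Red blood cell genes also lay below control in bleomycin lungs. Of 6 red blood cell genes 5 fell in bleomycin lungs, and their summed level was 5780 to 14085 TPM in bleomycin libraries against 16516 to 50945 TPM in control libraries. Control b2r2, low in calprotectin, was the control with the lowest sum, 16516 TPM, while the other 3 controls held 37977 to 50945 TPM. Bleomycin b2r1, high in calprotectin, held 9528 TPM. None of 6 platelet genes passed, with a median log2 fold change of -0.90. In Ad-GFP against bleomycin no red blood cell gene and no neutrophil gene passed, so the signs there are descriptions only. All 6 red blood cell genes lay above 0 there, with a median of 0.91, and all 6 neutrophil genes tested lay below 0, with a median of -0.50. The part of blood in the samples was not tested.

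Monocytes also make calprotectin. Of 8 monocyte genes 4 rose in bleomycin lungs and none fell, among them Cd14, a co-receptor for bacterial lipopolysaccharide, by 0.98 (SE 0.186, adjusted p = 0.00362) and Ccr2, the receptor that brings monocytes to tissue, by 1.09 (SE 0.224, adjusted p = 0.00560). Fcgr1, an Fc receptor, rose by 2.08 (adjusted p = 0.0146; adjusted p = 0.0579 without bleomycin b1r1). Ly6c2, a surface marker of classical monocytes, was at -0.57 (adjusted p = 0.123) and F13a1, a coagulation factor chain, at -0.21 (adjusted p = 0.804), neither past the test. The summed monocyte genes lay at 260 to 482 TPM in bleomycin against 170 to 225 TPM in control libraries, without overlap. Of 5 eosinophil and basophil genes only Prg2 was tested, at -0.97 (adjusted p = 0.202), and the eosinophil markers Ccr3 and Epx stayed under 1 TPM in every library.

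Other genes known from neutrophils did not move as a block with the 7. Of 6 later-granule genes tested, 2 rose and none fell, with 4 log2 fold changes above 0 and 2 below. Mmp9 was among those below, at -1.92 in batch 1 and -0.09 in batch 2, and did not pass. Ltf, which encodes lactoferrin, was at 118.39, 70.04, 30.98 and 49.27 TPM in bleomycin libraries against 17.81, 21.73, 24.68 and 17.84 TPM in control libraries, with no overlap. It rose by 1.51 (SE 0.373, adjusted p = 0.0141; adjusted p = 0.0574 without bleomycin b1r1). Lcn2, which encodes a lipocalin that binds bacterial siderophores, rose by 1.43 (SE 0.341, adjusted p = 0.0121), with 541.25, 557.12, 997.96 and 764.84 TPM in bleomycin libraries against 549.24, 238.47, 204.01 and 162.88 TPM in control libraries. Control b1r1 alone reached the bleomycin range. Both proteins are made by airway epithelium as well as by neutrophils, and the cell source of these transcripts was not tested. Lcn2 was more abundant than S100a8 in all libraries but control b1r2 and b2r1. Mmp8, a neutrophil collagenase, was at 1.17 and did not pass (adjusted p = 0.0942).

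Of 14 genes of mature neutrophils, 1 rose and 2 fell, with 9 log2 fold changes below 0 and 5 above. Cxcr2 was at -1.74 in batch 1 and 0.19 in batch 2 and did not pass. Clec4d, a myeloid lectin receptor also found on macrophages, rose by 1.75 (SE 0.341, adjusted p = 0.00437). G0s2, an inhibitor of fat breakdown, fell by 1.13 (SE 0.343, adjusted p = 0.0347). The G0s2 call was lost without any one of bleomycin b1r1, b1r2 and b2r2 and control b1r2, b2r1 and b2r2, with adjusted p up to 0.0949. Of the 5 primary-granule genes only Prtn3, which encodes proteinase 3, reached the filter, at -0.09 (adjusted p = 0.690).

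Among 10 neutrophil attractants and cytokines, 3 rose and none fell. They were Il6 by 1.22 (SE 0.272, adjusted p = 0.00831), Tnf by 1.08 (SE 0.242, adjusted p = 0.00865) and Cxcl2, a ligand of the neutrophil receptor Cxcr2, by 1.22 (SE 0.375, adjusted p = 0.0368). The Cxcl2 call was lost without any one of bleomycin b1r1, b1r2 and b2r2 and control b1r2 and b2r1, with adjusted p up to 0.129. Csf3, which encodes the ligand of Csf3r, stayed at 0.00 to 0.51 TPM in all libraries and was not tested. Of 4 factors of neutrophil formation, Spi1, which encodes PU.1, rose by 1.03 (adjusted p = 0.0381); its adjusted p reached 0.121 without single libraries, and its call was lost without any one of bleomycin b1r1, b1r2 and b2r2 and control b2r1 and b2r2. Of the 3 receptors for calprotectin, Bsg rose by 0.28 (adjusted p = 0.0462), a call that held without control b2r1 and was lost without any one of the other 15 libraries, and Tlr4 and Ager were at 0.03 and -0.10 (adjusted p = 0.964 and 0.762).

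**Figure D2:**
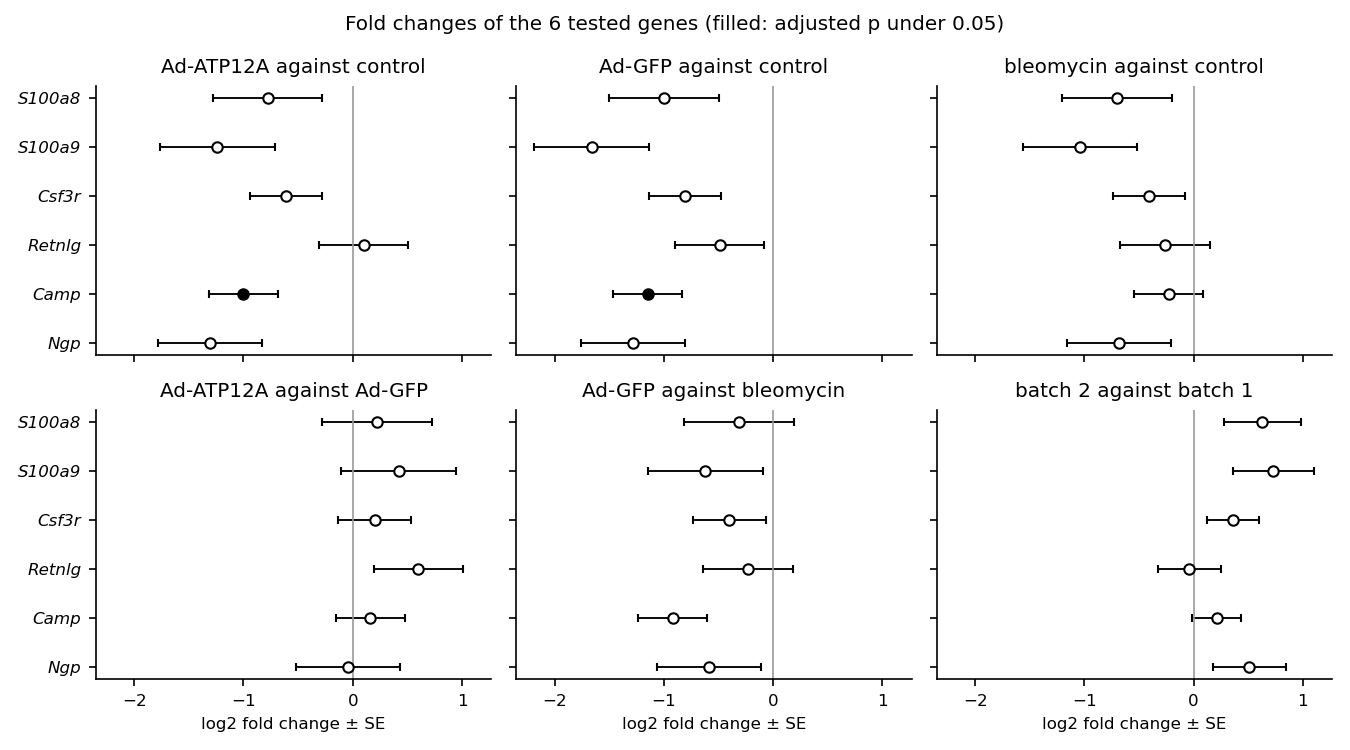
Log2 fold change ± SE, on the log2(TPM + 1) scale, of the 6 neutrophil genes tested in 6 comparisons over 16 libraries; filled points passed at an adjusted p under 0.05. The only filled points are Camp in Ad-ATP12A against control (-1.0) and in Ad-GFP against control (-1.15).

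The vector groups were next set against control, with bleomycin and vector both differing between the groups. In Ad-GFP against control 1 of 6 neutrophil genes passed, with 9.16% of all genes called higher and 4.52% lower. Camp fell by 1.15 (SE 0.316, adjusted p = 0.0290) and was lower by similar amounts in both batches, -1.22 and -1.08. It averaged 2.23 ± 0.274 TPM in Ad-GFP lungs against 6.93 ± 3.92 TPM in control lungs (SD, n = 4 each). S100a9 was at -1.66 (adjusted p = 0.0505), Ngp at -1.28 (adjusted p = 0.0895), S100a8 at -1.0 (adjusted p = 0.195), Csf3r at -0.81 (adjusted p = 0.118) and Retnlg at -0.49 (adjusted p = 0.444). Ly6g was at -0.45 with no filter (adjusted p = 0.474).

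The Camp call was lost without any one of Ad-GFP b1r1, b1r2 and b2r2 and control b1r1, b1r2 and b2r1, with adjusted p up to 0.0919. Without control b2r2, 5 of 6 genes passed as lower, S100a9 at -2.28 (adjusted p = 0.00517), Ngp at -1.92 (adjusted p = 0.00278), S100a8 at -1.64 (adjusted p = 0.0106) and Csf3r at -1.21 (adjusted p = 0.00868) among them. Without bleomycin b2r1, a library of neither group, S100a9 joined Camp (adjusted p = 0.0367), as it did with quantile normalization (adjusted p = 0.0326). Red blood cell sums were 10443 to 23885 TPM in Ad-GFP libraries, and 1 of 6 of these genes fell; the part of blood was not tested. Of 8 monocyte genes 3 rose and none fell, with sums of 204 to 508 TPM in Ad-GFP against 170 to 225 TPM in control libraries, which overlapped.

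Among the other neutrophil genes, Mmp9, a gelatinase of the later granules, fell by 1.58 (SE 0.396, adjusted p = 0.0200; lost without any one of Ad-GFP b2r2 and control b1r1 and b1r2, adjusted p up to 0.0693). Ltf rose by 1.41 (adjusted p = 0.0247; lost without any one of Ad-GFP b1r2 and b2r2 and control b1r1 and b1r2) and Lcn2 by 1.13 (adjusted p = 0.0418). The Lcn2 call was lost without any one of Ad-ATP12A b2r2, Ad-GFP b1r1, b1r2 and b2r1, bleomycin b2r2, and control b1r2, b2r1 and b2r2, with adjusted p up to 0.122. Clec4d rose by 1.94 (SE 0.341, adjusted p = 0.00355). The Clec4d call held whichever library was left out.

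In Ad-ATP12A against control 1 of 6 genes passed, with 13.3% of all genes called higher and 9.49% lower. Camp fell by 1.00 (SE 0.316, adjusted p = 0.0365), with a mean of 2.65 ± 0.794 TPM in Ad-ATP12A lungs against 6.93 ± 3.92 TPM in control lungs (SD, n = 4 each). Its call was lost without any one of the 4 Ad-ATP12A libraries and of control b1r1, b1r2 and b2r1, with adjusted p up to 0.108. Ngp was at -1.31 (adjusted p = 0.0612), S100a9 at -1.24 (adjusted p = 0.101), S100a8 at -0.78 (adjusted p = 0.274), Csf3r at -0.61 (adjusted p = 0.196) and Retnlg at 0.10 (adjusted p = 0.878), with Ly6g at -0.38 with no filter (adjusted p = 0.558). Without control b2r2, 5 of 6 passed as lower, with S100a9 at -1.86 (adjusted p = 0.00775) and Ngp at -1.95 (adjusted p = 0.00127). Without bleomycin b2r1 Ngp joined Camp (adjusted p = 0.0488), as it did with a term for Xist (-1.52, adjusted p = 0.0420).

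S100a8 and S100a9 lay apart between the batches of this comparison. Neither passed the interaction test (limma, adjusted p = 0.0762 and 0.0636). Camp, the gene called, was at -1.28 in batch 1 and -0.71 in batch 2. In batch 1 alone S100a8 was at -2.05 (adjusted p = 0.0114) and S100a9 at -2.61 (adjusted p = 0.00870), and in batch 2 alone they were at 0.49 and 0.13. Red blood cell genes were split by batch as well, with sums of 9235 and 11315 TPM in batch 1 and 39816 and 23285 TPM in batch 2 of Ad-ATP12A, against 37977 and 41761 TPM in batch 1 and 50945 and 16516 TPM in batch 2 of control. Hba-a1 was at -1.92 in batch 1 and 0.12 in batch 2, and 1 of the 6 genes, Hbb-bt, passed as lower over both batches (-1.41, adjusted p = 0.0365; lost without any one of Ad-ATP12A b1r1, b1r2 and b2r2 and control b1r1, b1r2 and b2r1). The part of blood was not tested. Retnlg was at -1.04 in batch 1 and 1.25 in batch 2, and the difference of 2.30 had the smallest interaction p of the set (adjusted p = 0.0517). Atp12a itself was at 5.13 and 2.96 TPM in batch 1 and 29.02 and 25.70 TPM in batch 2 of Ad-ATP12A. Any relation of Atp12a to the neutrophil genes was not tested, and within this group it cannot be told apart from batch.

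Of the later-granule genes 4 of 6 rose in this comparison. Cd177, a surface protein of neutrophils that is also made by some epithelia, was at 62.59, 35.73, 64.04 and 20.42 TPM in Ad-ATP12A libraries against 12.87, 4.70, 4.85 and 6.51 TPM in control libraries, and rose by 2.47 (SE 0.602, adjusted p = 0.0115). Ltf rose by 1.71 (SE 0.373, adjusted p = 0.00642), Lcn2 by 1.14 (adjusted p = 0.0288) and Pglyrp1, a peptidoglycan recognition protein, by 1.56 (adjusted p = 0.0439). The calls of Cd177 and Ltf held whichever library was left out; that of Lcn2 was lost without any one of Ad-ATP12A b1r1, b1r2 and b2r2 and control b1r2, b2r1 and b2r2. The Pglyrp1 call was lost without any one of 11 libraries, Ad-ATP12A b1r1 and b1r2, Ad-GFP b1r1, and all bleomycin and control libraries. Of 14 mature genes 3 rose and 2 fell. Clec4d rose by 1.92 (adjusted p = 0.00233) and G0s2 fell by 1.37 (adjusted p = 0.0132), and these calls held whichever library was left out. Acod1, the enzyme of itaconate synthesis, rose by 1.44 (adjusted p = 0.0163; 0.0596 without Ad-ATP12A b2r1). Il1r2, a decoy receptor for interleukin 1, rose by 1.35 (adjusted p = 0.0281; lost without any one of Ad-ATP12A b1r1, b2r1 and b2r2 and control b2r1 and b2r2). Of 8 monocyte genes 4 rose, and the summed list was at 251 to 621 TPM in Ad-ATP12A against 170 to 225 TPM in control libraries. The 3 comparisons with control share its 4 libraries, so their values are not independent.

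Between the bleomycin-treated groups no neutrophil gene passed. In Ad-GFP against bleomycin all 6 were negative with an adjusted p of 1.00, from Camp at -0.92 (SE 0.316, unadjusted p = 0.0112) to Retnlg at -0.23 (SE 0.410); only 2 of 17003 genes, 0.0118%, passed in either direction, and 287 had an unadjusted p under 0.05. Camp did not overlap between these groups, with 1.94 to 2.56 TPM in Ad-GFP against 3.91 to 8.68 TPM in bleomycin libraries. The share of all genes without overlap was not counted for this or any other comparison, so such separations are descriptions only. In Ad-ATP12A against Ad-GFP, in which both groups had a vector, 0 of 6 passed, beside 1 of 17003 genes, 0.00588%, and 413 with an unadjusted p under 0.05. Retnlg was at 0.60 (SE 0.410), S100a9 at 0.42 (SE 0.526), S100a8 at 0.22, Csf3r at 0.20, Camp at 0.16 and Ngp at -0.04 (adjusted p = 0.999 or more for each). In batch 2 S100a9 was at 194.26 and 215.24 TPM in Ad-ATP12A against 83.34 and 95.85 TPM in Ad-GFP libraries; in batch 1 it was at 47.76 and 63.75 TPM against 61.15 and 80.67 TPM. Not passing does not show that the groups had equal levels.

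Batch 2 against batch 1, with groups as terms, gave no call among the 6, although 16.4% of all genes were called higher and 2.11% lower. S100a9 was at 0.73 (adjusted p = 0.181), S100a8 at 0.63 (adjusted p = 0.225) and Ngp at 0.51 (adjusted p = 0.299), and Retnlg was at -0.04. Without control b2r2, 5 of the 6 passed as higher, S100a9 at 1.04 (adjusted p = 0.0134) and Ngp at 0.83 (adjusted p = 0.00702) among them.

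**Figure D3:**
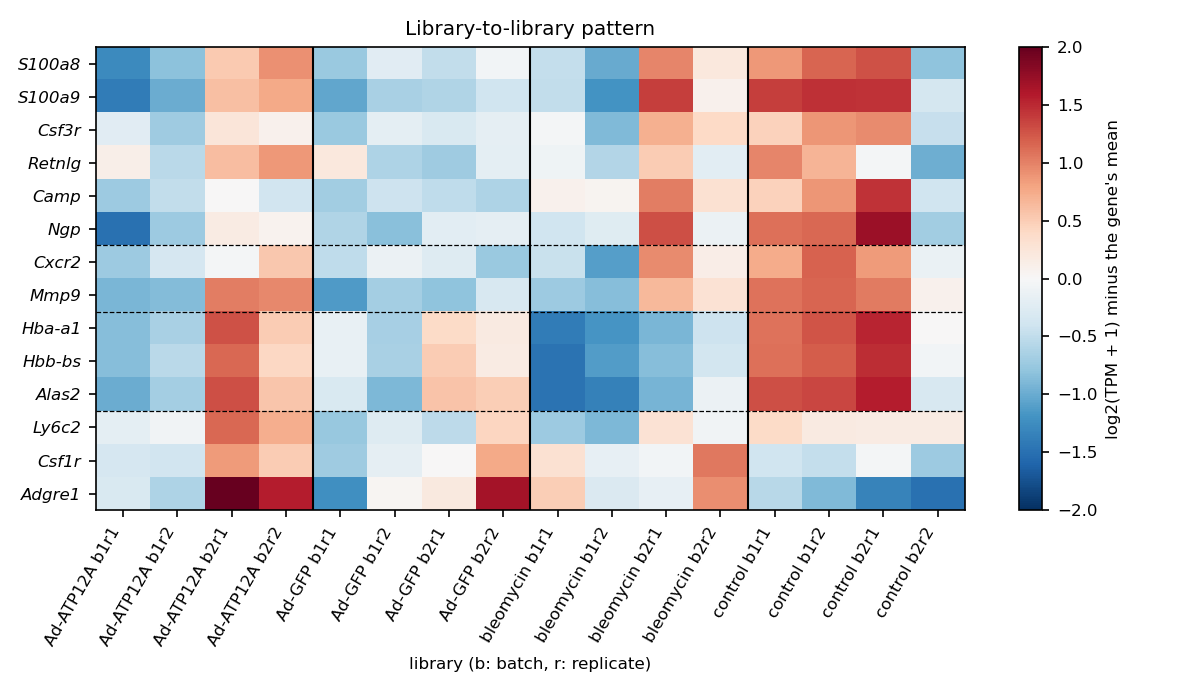
Log2(TPM + 1) minus each gene's mean over the 16 libraries, red above and blue below, for the 6 neutrophil genes tested, the genes Cxcr2 and Mmp9, 3 red blood cell genes and 3 monocyte genes, separated by dashed lines; libraries run in groups from Ad-ATP12A to control. The 3 control libraries other than b2r2 and bleomycin b2r1 are the deepest red for S100a9, and the red blood cell genes are blue in bleomycin b2r1, where their sum was 9528 TPM.

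Across the 16 libraries the neutrophil genes varied together to unequal degrees. The correlation of log2(TPM + 1) was highest between S100a8 and S100a9 (Pearson r = 0.97) and was 0.90 between Camp and Ngp, the granule pair. It was lowest between Retnlg and Camp (r = 0.37), with Retnlg and Ngp at 0.53. The 16 points share 4 groups and 2 batches, so these values are descriptions. After group-by-batch means were removed, S100a8 and S100a9 were at r = 0.95, Camp and Ngp at 0.92, and Retnlg and Camp at 0.43.

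The gene most like the mean pattern of the 6 was Cxcr2, the chemokine receptor that draws neutrophils to tissue (r = 0.90 over 16 libraries), followed by Mmp9 (0.90), Sstr4 (0.88), Tmem109 (0.87), Phospho1 (0.87), Polr2e (0.86), Rec114 (0.86), Ccdc71 (0.84), Gfod1 (0.83) and Nsun6 (0.82). In all, 21 genes other than members exceeded r = 0.8 of 17003 compared. With group-by-batch means removed, only the difference within 8 pairs of libraries is left. Then 163 genes exceeded 0.8, led by Hira (0.95), Zdhhc7 (0.94), Rec114 (0.93), Vmac (0.92) and Gemin5 (0.92). Mmp9 was then at r = 0.88 and Cxcr2 at 0.77, under that limit. Cxcr2 was at 1.46, 2.24, 2.99 and 4.91 TPM in Ad-ATP12A, 1.86, 2.76, 2.43 and 1.45 TPM in Ad-GFP, 2.00, 0.90, 6.88 and 3.47 TPM in bleomycin, and 5.86, 8.23, 6.34 and 2.71 TPM in control libraries, so control b2r2 was the lowest control here too. Ltf and Lcn2 were at r = -0.58 and -0.24 to the pattern, and Hba-a1, an alpha-globin, at 0.61.

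**Figure D4:**
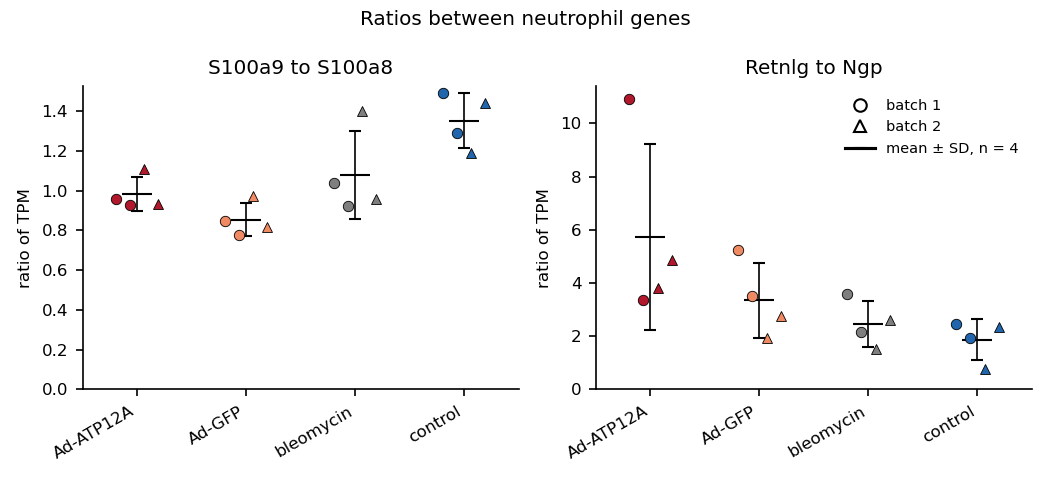
Ratio of S100a9 to S100a8 TPM (left) and of Retnlg to Ngp TPM (right) in the 16 libraries by group, linear axes from 0; circles are batch 1, triangles batch 2, and bars are the mean ± SD of 4 libraries. The control libraries hold 1.19 to 1.49 for S100a9 to S100a8, above all Ad-ATP12A (0.927 to 1.11) and Ad-GFP (0.777 to 0.971) libraries.

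The balance within the set was described by 2 ratios chosen after the values were seen, with no test. A further ratio, of Camp to Ngp, overlapped between all groups. Its means were 0.512 in Ad-ATP12A, 0.409 in Ad-GFP, 0.577 in bleomycin and 0.415 in control lungs. The ratio of S100a9 to S100a8 was 0.982 ± 0.0863 in Ad-ATP12A, 0.854 ± 0.0835 in Ad-GFP, 1.08 ± 0.220 in bleomycin and 1.35 ± 0.138 in control lungs (SD, n = 4 each). Control b2r2, low in both genes, kept a ratio within the control range, and bleomycin b2r1, at 1.40, was the one treated library inside that range. The ratio of Retnlg to Ngp was 5.72 ± 3.51 in Ad-ATP12A, 3.34 ± 1.41 in Ad-GFP, 2.46 ± 0.870 in bleomycin and 1.87 ± 0.776 in control lungs. Every Ad-ATP12A library, from 3.35 to 10.9, lay above every control library, from 0.756 to 2.44, and the other groups overlapped with both.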

How the data were processed

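Total RNA of mouse lung was sequenced in 16 libraries. The deposited values are log2(TPM + 1), made by the authors; per the submitters' processing notes, reads were handled with STAR and RSEM on GRCm39 (mm39), with no versions or annotation given. Turned back to TPM, columns summed to 999999.12 to 1000000.82 in steps of 0.01 TPM. Such normalized values keep no counts, so no count model was fitted, and a fold change on the log2(TPM + 1) scale understates changes of low genes. Symbols came from GENCODE M21 (52093 identifiers matched, 1554 did not); promoter sequences are RefSeq's on GRCm38.p6, a build other than the files'. No library pair was identical.

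The test was limma 3.58.1 (R 4.3.3) with a trended prior variance, 4 group means and batch, over all 16 libraries, two-sided, with Benjamini-Hochberg adjustment over 17003 genes that reached 1 TPM in 4 libraries or more and a threshold of 0.05. Quoted SE are moderated. A fit with 8 group-by-batch means tested whether effects differed between batches. Figures used Python 3.11.15 and matplotlib 3.10.9. The code was tested on simulated data. Alternatives were a pseudocount of 0.1 TPM, no filter, a mean of at least 5 TPM, quantile normalization, median-ratio scaling, fits of only the 8 libraries in question, leaving batch out, a replicate block, either batch alone, a robust prior, no libraries low in Scgb1a1, a term for Xist, and each library left out.

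The members and lists were chosen with earlier results of these data known. The comparisons of Ad-GFP and Ad-ATP12A with control were added after the data were seen. Named were the 7 members, up to 3 genes per list with the smallest p or those needed where 5 or fewer passed, the 10 genes most like the members (5 after group-by-batch means were removed), and Scgb1a1, Xist and Atp12a. Csf3, Ccr3, Epx, Sftpc, Ly6c2, F13a1 and Hba-a1, and repeats of a gene across comparisons, were named outside this rule after values were seen. Some genes of the lists are counted but not reported here by name.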

Additional observations from a re-analysis of the deposited data

Results flagged for a closer look

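The S100a9 level of control b2r2, 99.49 TPM, stood apart from the other 3 controls, at 332.63 to 352.71 TPM, by a gap of 0.95 of the group's range, above Dixon's critical value. Ngp in bleomycin b2r1, 21.46 TPM, stood apart from the other 3 bleomycin libraries, at 5.94 to 7.42 TPM, by a gap of 0.84 of the range. Of 28 groups of 4 libraries examined, 2 were singled out in this way, and chance singles out about 1 in 20.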

How the results depend on the processing

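The number of the 6 neutrophil genes called moved in 4 comparisons. In bleomycin against control it was 0 and became 4 in batch 1 alone and, leaving out 1 library, lay between 0 and 4. In Ad-GFP against control it was 1 and became 0 with no filter, in batch 2 alone and without the libraries low in Scgb1a1. It became 2 with quantile normalization, median-ratio scaling or a term for Xist, and 4 in batch 1 alone. With a mean of at least 5 TPM, which removes Camp, it stayed at 1 through S100a9 (adjusted p = 0.0471). With the 8 libraries compared alone it also stayed at 1, with S100a9 called (adjusted p = 0.0492) and Camp lost (adjusted p = 0.0971). Leaving out 1 library it lay between 0 and 5. In Ad-ATP12A against control it was 1 and became 0 with no filter, with a mean of at least 5 TPM (which removes Camp), in batch 2 alone, without the libraries low in Scgb1a1 and with the 8 libraries compared alone, 2 with a term for Xist, and 4 in batch 1 alone; leaving out 1 library it lay between 0 and 5. In batch 2 against batch 1 it was 0, and 0 to 5 leaving out 1 library. The highest counts left out control b2r2 in each case. That library was the lowest control for each of the 6 genes, so these counts give no support of their own. Shares of all genes called under the alternatives are not reported here. Apart from these constructions, the cause was not tested.

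Same-numbered libraries did not pair: over 12 pairs of groups their deviations correlated at -0.16 to 0.21, with 1 over 0.1. With the replicate block the count stayed at 0 in bleomycin against control, 1 in each vector group against control and 0 between the treated groups.

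Log2 fold changes that turned sign, none past the threshold, were these. In batch 2 alone, bleomycin against control gave 0.36 for S100a8, 0.18 for S100a9, 0.32 for Csf3r, 0.65 for Retnlg, 0.15 for Camp and 0.08 for Ngp; Ad-GFP against control gave 0.05 for Retnlg; Ad-ATP12A against control gave 0.49 for S100a8 and 0.13 for S100a9; and Ad-ATP12A against Ad-GFP gave 0.32 for Ngp. In batch 1 alone, Ad-ATP12A against control gave -1.04 for Retnlg, Ad-GFP against bleomycin gave 0.26 for S100a8 and 0.14 for Retnlg, and Ad-ATP12A against Ad-GFP gave -0.55 for S100a8, -0.34 for S100a9, -0.00 for Csf3r, -0.01 for Retnlg and -0.06 for Camp. Without the libraries low in Scgb1a1, Camp was at 0.07 in bleomycin against control, Ngp at 0.00 in Ad-ATP12A against Ad-GFP and Retnlg at 0.14 between batches. With a term for Xist, Retnlg was at -0.18 in Ad-ATP12A against control and 0.10 between batches. Leaving out 1 library, Retnlg ran from -0.67 to 0.03 and Camp from -0.63 to 0.04 in bleomycin against control, Retnlg from -0.30 to 0.41 in Ad-ATP12A against control and from -0.19 to 0.16 between batches, and S100a8 from -0.06 to 0.51 and Ngp from -0.18 to 0.23 in Ad-ATP12A against Ad-GFP. Of all values of single members under the alternatives, 916 kept sign and side of the threshold, 36 turned sign, 35 passed newly and 21 lost a call. Of those of other list genes called, 1196 held, 346 lost the call and 0 turned sign. Depth is unknown, and Ly6g, at 1.51 TPM or less, lies near the table's step of 0.01 TPM.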
